A study of Homo sapiens with 5 samples.

Results

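Small calcium-binding proteins of the S100 family and the annexins, which bind membrane phospholipids in the presence of calcium, were examined in single SW480 cells taken from zebrafish xenografts. The 10 genes S100A4, S100A6, S100A10, S100A11, S100A14, S100A16, S100P, ANXA2, ANXA3 and ANXA5 were taken by their symbols from the count tables of all 5 libraries, out of 21283 symbols listed in any library (spike-in controls included). SW480, a long-established line from a human colorectal carcinoma, carried GFP in all groups (the study calls the cells GFP transfected). The compared groups were tumors dissected at 1 day post injection (1 dpi, libraries 6, 7 and 8) and at 4 dpi (libraries 10 and 11). Hosts were injected at 2 days post fertilization, an age at which innate immunity is active and adaptive immunity has not fully matured. Many tumors were mixed in a pool before live (DAPI-negative) cells were sorted into 384-well plates, 1 plate per library. The host genotype for these plates is not stated, nor is the number of pools behind the 3 and the 2 plates. Where plates share a pool, p-values measure technical spread alone.

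Most S100 proteins work as dimers that open a hydrophobic face when calcium rises and then bind other proteins, and several of them dock on annexins. S100A10 is the exception that needs no calcium and forms a tetramer with ANXA2 beneath the plasma membrane, where the pair organizes actin, membrane repair and plasminogen activation. S100A11 pairs with ANXA1 and ANXA2 in membrane repair, S100A4 binds non-muscle myosin heavy chains and is known for its part in cell motility and metastasis, and S100A6 binds CACYBP. S100P was first described in placenta and is raised in several carcinomas, and S100A14 and S100A16 are epithelial members that neighbour each other in the genome. ANXA5 is the annexin used to detect phosphatidylserine on dying cells, and ANXA3 is known as an inhibitor of phospholipase A.

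Of the 10 genes, 6 lie on chromosome 1 in the S100 gene cluster (RefSeq, GRCh38.p14; all 10 symbols matched, with the chromosome the files give). S100A10 (chr1:151982915-151993859) and S100A11 (chr1:152032506-152037004) are separated by 38.65 kb. A far wider gap of 1497.59 kb lies between S100A11 and the next member, S100A6. S100A6 (chr1:153534599-153535991) and S100A4 (chr1:153543621-153545806) are only 7.63 kb apart, on the same (minus) strand. S100A16 (chr1:153606883-153613137) and S100A14 (chr1:153614255-153616325) follow, with 1.12 kb between them. S100P (chr4:6693878-6697170), ANXA3 (chr4:78551770-78610447), ANXA5 (chr4:121667946-121696980) and ANXA2 (chr15:60347151-60397986) lie elsewhere.

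The 250 bases before the RefSeq start site are shown for 4 genes whose window holds no annotated exon. They were picked after the results were seen, because S100A4 and S100P lay outside the block of correlated members that held S100A10 and S100A11. All 4 were called lower at 4 dpi in all cells, and the part of the promoters in these patterns was not tested. Capitals mark a TATA box (TATAAA) or a GC box (GGGCGG), and each sequence runs 5′ to 3′ on the strand of its gene.
S100A4: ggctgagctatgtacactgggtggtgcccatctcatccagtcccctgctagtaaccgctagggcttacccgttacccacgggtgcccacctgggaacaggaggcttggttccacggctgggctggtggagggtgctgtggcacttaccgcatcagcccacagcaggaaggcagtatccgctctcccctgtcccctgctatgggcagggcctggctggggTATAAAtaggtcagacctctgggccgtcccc
S100P: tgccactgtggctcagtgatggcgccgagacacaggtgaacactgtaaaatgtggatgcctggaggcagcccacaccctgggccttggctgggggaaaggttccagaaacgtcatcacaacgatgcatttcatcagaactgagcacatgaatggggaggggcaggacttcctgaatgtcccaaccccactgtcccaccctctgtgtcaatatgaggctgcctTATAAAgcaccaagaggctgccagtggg
S100A10: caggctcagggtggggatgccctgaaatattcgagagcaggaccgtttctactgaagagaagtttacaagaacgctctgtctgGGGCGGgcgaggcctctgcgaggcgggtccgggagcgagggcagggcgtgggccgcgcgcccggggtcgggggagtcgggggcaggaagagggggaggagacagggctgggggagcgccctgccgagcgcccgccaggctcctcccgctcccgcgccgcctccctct
S100A11: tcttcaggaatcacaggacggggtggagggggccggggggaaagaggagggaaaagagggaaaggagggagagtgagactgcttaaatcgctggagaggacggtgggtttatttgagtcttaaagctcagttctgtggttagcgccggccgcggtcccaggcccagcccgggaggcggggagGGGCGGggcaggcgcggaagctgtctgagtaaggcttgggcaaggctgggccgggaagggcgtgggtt
The windows are chr1:153545807-153546056 (minus strand) for S100A4, chr4:6693628-6693877 (plus) for S100P, chr1:151993860-151994109 (minus) for S100A10 and chr1:152037005-152037254 (minus) for S100A11. The TATA box began 31 bases before the start of S100A4 and 28 bases before that of S100P, and neither window held a GC box. S100A10 and S100A11 held 1 GC box each and no TATA box. Among all 35116 RefSeq promoter windows of the same length, 10.7% held TATAAA and 42.6% held GGGCGG on either strand, so that a GC box is common. Neither an AP-1 site (TGANTCA, in 6.57% of all windows) nor a TCF/LEF site (ATCAAAG, in 2.26%) was found in the windows of these 4 genes, with both strands searched. In the windows of the other members ANXA2 held 1 TATA box, 1 AP-1 site and 3 GC boxes. S100A6 held 3 GC boxes and ANXA5 held 1. The GC boxes of ANXA2, and the nearest pair of those of S100A6, overlap one another. S100A16, which has 2 RefSeq start sites, held 1 GC box before one of them, and none of the 4 motifs was in the windows of S100A14 and ANXA3. These matches are letters in a window and say nothing of binding in these cells.

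After filtering, 826 cells were left (533 of 1 dpi and 293 of 4 dpi), with 3789627 to 7503652 human UMIs per library and a median of 18823 to 36197 UMIs per cell. A UMI, a unique molecular identifier, counts 1 captured RNA molecule by its 3′ end. Levels are CPM, the UMIs of a gene scaled to a total of 1000000 human UMIs in the library, and are compared between samples, not between genes. Cells were divided by TOP2A, a topoisomerase made in S, G2 and M phase, into 536 cells with 0 TOP2A UMIs (TOP2A-zero) and 290 with at least 1 (TOP2A-positive). TOP2A-positive cells made up 25.8% to 35.9% of the cells of the 1 dpi libraries and 42.4% and 43.5% of those of 4 dpi. Of a list of cycling genes, 19 were tested and all 19 were higher in TOP2A-positive cells, and MKI67 stood at 74 to 245 CPM there and at 8.44 to 25.9 in TOP2A-zero cells. TOP2A-positive cells were also deeper (medians of 27912 to 48450 UMIs per cell) than TOP2A-zero cells (15865 to 32246), and a TOP2A-zero cell may be a cycling cell in which the transcript was not captured. The epithelial identity of the line was present, with 31993 UMIs of EPCAM and 52399 of KRT8, whereas CDX1 had 1. Of the markers of other human cell types, MPO and CD3E (leukocyte), COL1A2 and THY1 (fibroblast), CDH5 (endothelium) and HBG1 and ALAS2 (erythroid) had 0 UMIs in all cells. Others of these lists were detected, led by LUM (597 UMIs), LAPTM5 (188), HBA1 (147), COL1A1 (139) and CD68 (81).

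All 10 genes passed the filter on low counts in every comparison. Together they took 0.475% to 0.571% of all human UMIs in the libraries of 1 dpi and 0.408% and 0.417% in those of 4 dpi, so that the 4 dpi libraries lay below all 1 dpi libraries. The 7 S100 genes of the list contributed 0.311% to 0.406% at 1 dpi and 0.27% and 0.274% at 4 dpi. In TOP2A-zero cells the share of all 10 genes overlapped between time points. It was 0.5106%, 0.595% and 0.614% at 1 dpi and 0.491% and 0.5108% at 4 dpi. In TOP2A-positive cells it was 0.429%, 0.542% and 0.463% at 1 dpi and 0.350% and 0.318% at 4 dpi.

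The first question was whether the cells left at 4 dpi held these transcripts at the level of 1 dpi. In all cells together, 7 of the 10 genes were lower at 4 dpi and 0 were higher (edgeR quasi-likelihood test on UMIs summed per library, two-sided, Benjamini-Hochberg adjusted p under 0.05). Over all 12646 genes tested, 14.2% were called lower and 13.4% higher. The median log2 change of the 10 genes was -0.57, against 0.0023 for all genes. The 10 genes were chosen with earlier results of these data known. The contrasts of the list with all genes, here and below, are therefore descriptions and not tests of the list. The 3 that were not called were S100A6, S100A14 and ANXA5, and the number of the 10 with an unadjusted p under 0.05 was also 7. Of all 12646 genes tested, 4935 had an unadjusted p under 0.05, so that such a value is common here.

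S100A4, the motility-associated member, stood at 388, 538 and 660 CPM in libraries 6, 7 and 8, against 285 and 248 in the 4 dpi libraries 10 and 11. The groups did not overlap, although library 6 was nearer to the 4 dpi libraries than to library 8. Its fitted change was -1.01 on the log2 scale (SE 0.16, adjusted p = 0.00031), that is 2.01-fold lower. Within the first flow cell (libraries 6 and 7 against 10) its level differed by -0.70 on the log2 scale and within the other (8 against 11) by -1.41.

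S100A11, a membrane repair protein, fell by 0.94 on the log2 scale (SE 0.13, adjusted p = 7.7e-05). Its levels were 828, 1101 and 1030 CPM at 1 dpi and 582 and 463 at 4 dpi, a clear gap between the time points. S100A10, the partner of ANXA2, was at 647, 852 and 799 at 1 dpi and at 549 and 544 at 4 dpi, and its change was smaller (-0.51, SE 0.11, adjusted p = 0.0029). S100A16 went from 339, 404 and 386 to 255 and 241 (log2 change -0.63, SE 0.10, adjusted p = 0.00037). These 3 genes of chromosome 1 did not overlap between time points in any pair of libraries.

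S100P was a low-level member with 174 to 571 UMIs per library. It stood at 71.6, 103 and 119 CPM at 1 dpi and at 43.9 and 62 at 4 dpi, and its change was -0.90 (SE 0.19, adjusted p = 0.0024). S100A14 had 34.9, 72.2 and 81.6 at 1 dpi and 33.3 and 56.5 at 4 dpi, so that library 6 lay among the 4 dpi libraries, and the change of -0.49 (SE 0.27) did not pass the test (adjusted p = 0.194). Without library 6 it passed (-0.81, adjusted p = 0.0043), as it did without library 11 (-0.91, adjusted p = 0.0393) and with the flow cell as a term (-0.62, adjusted p = 0.0399), whereas the change shrank to -0.27 without library 8 and to -0.16 without library 10.

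S100A6 went against its neighbour S100A4. Its levels were 799, 881 and 983 CPM at 1 dpi and 954 and 1125 at 4 dpi. The 4 dpi libraries overlapped those of 1 dpi in all cells, and the change of 0.20 (SE 0.10) was not called (adjusted p = 0.148).

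Among the annexins, ANXA3 was 241, 261 and 241 CPM at 1 dpi and 159 and 133 at 4 dpi. Its change of -0.79 (SE 0.11, adjusted p = 8.4e-05) was the largest of the 3 annexins. ANXA2 stood at 1051, 1132 and 1015 at 1 dpi and 938 and 854 at 4 dpi. That difference of -0.28 (SE 0.09, adjusted p = 0.0327) was near the threshold and was lost without library 7 (-0.22, adjusted p = 0.142), without library 11 (-0.21, adjusted p = 0.216) and with cells under 15% mitochondrial UMIs alone (-0.05, adjusted p = 0.739). ANXA5 overlapped between the time points, with 354, 367 and 330 at 1 dpi and 369 and 356 at 4 dpi (log2 change 0.02, SE 0.09, adjusted p = 0.875).

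In 7 of the 10 genes both libraries of 4 dpi lay below all 3 of 1 dpi, and in 0 above them. That was so for 25.6% of all genes tested in the downward and 28.5% in the upward direction, so the separation alone is common in these libraries. Within both flow cells 8 of the 10 genes had a lower level at 4 dpi, the exceptions being S100A6 and ANXA5. When the UMIs of the ERCC spike-in controls set the scale in place of all human UMIs, 0 of the 10 genes and 2 of 13106 genes were called, and the median of all genes shifted by -0.20. On that scale S100A4 had a change of -1.11 (SE 0.77), S100A11 of -1.07 (SE 0.76), ANXA3 of -0.95 (SE 0.76) and S100A6 of -0.012 (SE 0.73). These SEs were far wider than those of the reported fit, so the lack of calls does not show a lack of change. The controls took 0.92%, 0.84% and 0.89% of UMIs in libraries 6, 7 and 10, but 1.76% and 1.98% in libraries 8 and 11.

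The share of cells with a UMI moved in the same way for the lower members. S100P was detected in 66.7% to 81% of the cells of a 1 dpi library and in 45.3% and 46.2% of those of 4 dpi. Cells were also thinned to 5000 UMIs, which removes the difference in depth. Cells with fewer UMIs were left out, so that 526 cells of 1 dpi and 289 of 4 dpi remained. The shares of S100P in thinned cells were 30.5% to 40% and 16.2% and 24.5%. S100A4 was detected in 74.8% to 86.4% of thinned cells at 1 dpi (95.6% to 98.6% unthinned) and in 49.1% and 54.6% at 4 dpi (81.4% and 84.8% unthinned), and its median fell from 2 UMIs to 1 per thinned cell. For S100A6 the median was 4 UMIs per thinned cell at both time points, but the 90th percentile was 10 UMIs at 1 dpi and 13.2 at 4 dpi, and the largest value was 29 and 54. Cells are not replicates, and these shares were not tested.

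The next question was whether the time difference held among TOP2A-zero and among TOP2A-positive cells, since the classes were present in other proportions at 4 dpi. These 2 comparisons use the cells of the preceding one and are not independent of it. In TOP2A-zero cells 4 genes were lower (S100A4, S100A10, S100A11 and ANXA3) and 1 was higher (S100A6), where 8.18% of 11744 genes were called lower and 8.07% higher. In TOP2A-positive cells 7 were lower (S100A4, S100A10, S100A11, S100A14, S100A16, S100P and ANXA3) and 0 higher, where 9.06% of 11058 genes were called lower and 9.7% higher. The median log2 change of the 10 genes was -0.41 in TOP2A-zero and -0.81 in TOP2A-positive cells. The split did not hold cycling fixed over time. Of 19 cycling genes tested, 16 were higher at 4 dpi and 0 lower within TOP2A-positive cells (median 0.86). Within TOP2A-zero cells 4 were higher and 1 lower (median 0.59). In TOP2A-positive cells TOP2A itself had a mean of 111 CPM at 1 dpi and 275 at 4 dpi. The part of cycling in the changes within a class was not tested.

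**Figure D1:**
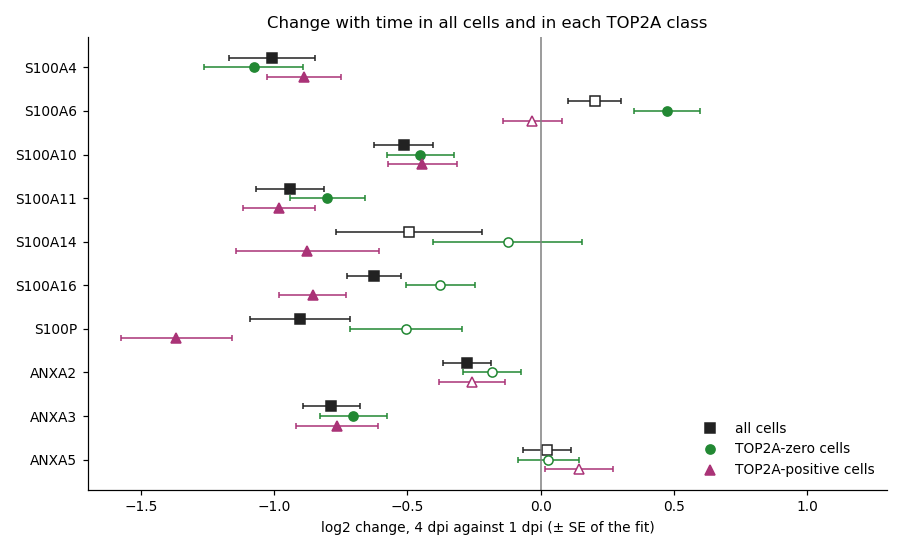
Log2 change of each gene from 1 dpi to 4 dpi (horizontal axis, with the SE of the edgeR fit as bars) in all cells (squares), TOP2A-zero cells (circles) and TOP2A-positive cells (triangles), filled where the adjusted p is under 0.05. S100A4, S100A10, S100A11 and ANXA3 were called lower in all 3 sets, and S100A6 was called higher in TOP2A-zero cells alone.

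S100A6 in TOP2A-zero cells was at 871, 901 and 1085 CPM at 1 dpi and at 1226 and 1542 at 4 dpi. Both 4 dpi values lay above all of 1 dpi, and the change was 0.47 (SE 0.12, adjusted p = 0.0121). It was 0.47 within the first flow cell and 0.51 within the other. The call rested in part on library 11, without which the change was 0.31 (adjusted p = 0.226). In TOP2A-positive cells the values were 705, 856 and 777 at 1 dpi and 710 and 758 at 4 dpi, fully overlapping (log2 change -0.03, SE 0.11, adjusted p = 0.877).

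S100A4 was lower at 4 dpi in both classes, with changes of -1.08 (SE 0.18, adjusted p = 0.00046) in TOP2A-zero and -0.89 (SE 0.14, adjusted p = 0.00017) in TOP2A-positive cells. The corresponding values of S100A11 were -0.80 (SE 0.14) and -0.98 (SE 0.14), and those of ANXA3 were -0.70 (SE 0.13) and -0.76 (SE 0.15). ANXA3 in TOP2A-positive cells was no longer called without library 11 (-0.52, adjusted p = 0.0746). S100A10 changed by -0.45 (SE 0.13, adjusted p = 0.0189) and -0.44 (SE 0.13, adjusted p = 0.0195). Its calls were lost in TOP2A-zero cells without library 7, 8, 10 or 11 in turn (adjusted p = 0.0761, 0.0626, 0.126 and 0.0847) and in TOP2A-positive cells without library 7, 10 or 11 (adjusted p = 0.143, 0.0603 and 0.178), with changes between -0.31 and -0.52. They were also lost with cells under 15% mitochondrial UMIs (adjusted p = 0.126 and 0.0905). With thinned cells the classes were made from the thinned counts, so that a TOP2A-positive cell could become TOP2A-zero. There S100A16 (-0.91, adjusted p = 0.0522) and ANXA3 (-0.94, adjusted p = 0.109) were no longer called in TOP2A-positive cells, with changes no smaller than before and 2949 genes tested. S100A4, S100A10, S100A11 and S100P were still called.

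S100P in TOP2A-positive cells was at 63.4, 103 and 77.8 CPM at 1 dpi and at 29.7 and 30.8 at 4 dpi, a change of -1.37 (SE 0.21, adjusted p = 0.00012). In TOP2A-zero cells it was at 77.9, 103 and 140 and then at 59.8 and 97.5, overlapping (-0.50, SE 0.21, adjusted p = 0.106). This call depended on the fit: S100P in TOP2A-zero cells passed with the flow cell as a term (-0.62, adjusted p = 0.0152), without library 6 (-0.71, adjusted p = 0.0146), with a class limit of 2 TOP2A UMIs (-0.60, adjusted p = 0.0412) and with cells divided by MKI67 (-0.59, adjusted p = 0.0494). It was -0.22 without library 10 and -0.26 without library 8. S100A16 changed by -0.86 (SE 0.12, adjusted p = 7.9e-05) in TOP2A-positive and by -0.38 (SE 0.13, adjusted p = 0.0515) in TOP2A-zero cells. In TOP2A-zero cells it passed under 5 alternatives, with changes of -0.39 to -0.49: without library 6 (adjusted p = 0.0109), with a class limit of 2 TOP2A UMIs (0.0110), with MKI67 classes (0.0243), with no filter on low counts (0.0396) and with cells of more than 1000 genes (0.0446). With cells under 15% mitochondrial UMIs it was -0.23. S100A14 changed by -0.88 (SE 0.27, adjusted p = 0.0255) and -0.12 (SE 0.28, adjusted p = 0.81), but in TOP2A-positive cells its libraries overlapped and the call was lost without library 7, 8, 10 or 11 in turn (-0.69, -0.69, -0.70 and -1.07, adjusted p = 0.107, 0.125, 0.213 and 0.0827), with cells under 15% mitochondrial UMIs (-0.83, adjusted p = 0.0733), with DESeq2 (-0.90, adjusted p = 0.260) and with cells divided by MKI67 (-0.00216, adjusted p = 0.997). ANXA2 and ANXA5 were called in neither class.

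A call in 1 class alone does not show that the classes differ, so the difference of the time changes was tested as an interaction with the library as a block. It was called for 0 of the 10 genes by edgeR and for 0 by DESeq2, with an unadjusted p under 0.05 for 4 of them (S100A6, S100A14, S100A16 and S100P). Over 11701 genes 0.137% were called with a higher and 0.0427% with a lower change in TOP2A-positive cells, and 899 had an unadjusted p under 0.05. The estimates were -0.48 (SE 0.15, adjusted p = 0.297) for S100A6, -0.85 (SE 0.25, adjusted p = 0.269) for S100P, -0.47 (SE 0.16, adjusted p = 0.412) for S100A16 and -0.72 (SE 0.24, adjusted p = 0.384) for S100A14. With library totals in place of TMM factors the difference for S100A6 passed the threshold (-0.62, adjusted p = 0.0321). For S100A4, S100A10, S100A11, ANXA2, ANXA3 and ANXA5 the estimates lay between -0.16 and 0.17.

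In TOP2A-zero cells the libraries did not overlap for 6 genes in the downward and 2 (S100A6 and ANXA5) in the upward direction, where 19.5% and 27.4% of all genes did so. In TOP2A-positive cells these counts were 7 and 0, where 27.9% and 20.8% of all genes did so. The gap of ANXA5 in TOP2A-zero cells was slight, with 401.6 CPM in library 10 of 4 dpi against 401.1 in library 6 of 1 dpi. Its change there was 0.03 (SE 0.12, adjusted p = 0.900 by edgeR). The median share of mitochondrial UMIs per cell at 4 dpi was 14.5% and 14.3% in TOP2A-positive and 12% and 10.1% in TOP2A-zero cells, against 10.5% to 13% in both classes at 1 dpi. Its part in these results was not tested beyond the limit of 15% above.

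Between the classes of the same library, 7 of the 10 genes were lower in TOP2A-positive cells and 0 higher (S100A6, S100A10, S100A11, S100P, ANXA2, ANXA3 and ANXA5; library as a block), where 4.04% of 11701 genes were called lower and 5.47% higher. The median log2 difference was -0.40 for the 10 genes and -0.0168 for all genes, a contrast that is again a description, given how the 10 were chosen. In 6 of the 10 the TOP2A-positive cells were the lower in each of the 5 libraries, which held for 8.67% of all genes.

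**Figure D2:**
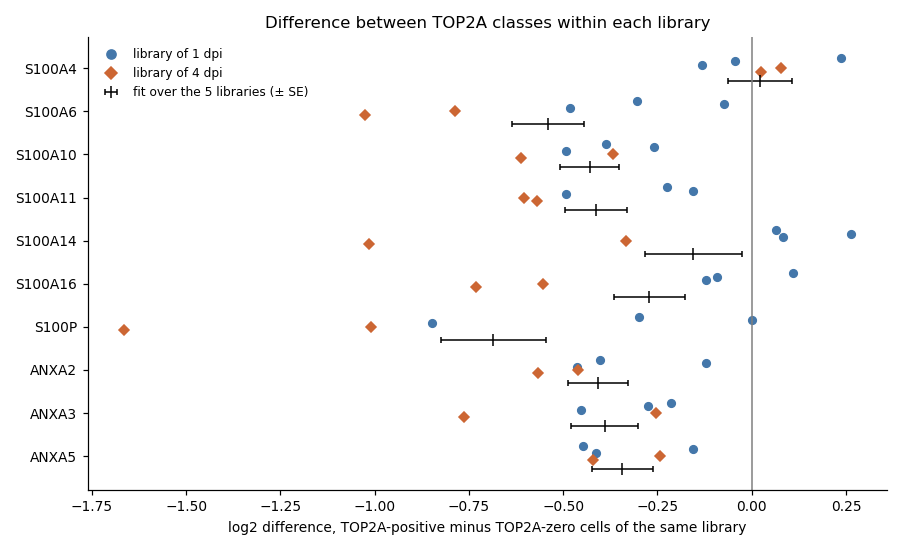
Log2 difference between TOP2A-positive and TOP2A-zero cells of the same library (horizontal axis) for each gene, with 1 point per library of 1 dpi (blue circles) or 4 dpi (orange diamonds) and the fit over the 5 libraries below them (black, ± SE). All points of S100A6, S100A10, S100A11, ANXA2, ANXA3 and ANXA5 lie below 0, while those of S100A4, S100A14, S100A16 and S100P do not all lie there.

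S100A6 differed by -0.54 (SE 0.09, adjusted p = 0.00024) over the libraries. The difference was -0.31, -0.07 and -0.48 in the 1 dpi libraries and -0.79 and -1.02 in those of 4 dpi, so that it was wider in both libraries of 4 dpi. S100P had the lowest value, -0.68 (SE 0.14, adjusted p = 0.0013, but -0.75 with adjusted p = 0.0701 by DESeq2), with library 11 at -1.66 and library 7 near 0. The annexins were all called, with -0.41 (SE 0.08, adjusted p = 0.00081) for ANXA2, -0.39 (SE 0.09, adjusted p = 0.0042) for ANXA3 and -0.34 (SE 0.08, adjusted p = 0.0056) for ANXA5. S100A10 (-0.43, SE 0.08, adjusted p = 0.00043) and S100A11 (-0.41, SE 0.08, adjusted p = 0.0011) were close to them.

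S100A4 showed no such difference, with 424, 529, 620, 293 and 250 CPM in the TOP2A-positive cells of libraries 6, 7, 8, 10 and 11 and 360, 545, 680, 277 and 246 in their TOP2A-zero cells (log2 difference 0.02, SE 0.09, adjusted p = 0.923). For S100A4 and for S100A14 the TOP2A-positive cells were the lower in only 2 libraries. S100A14 (-0.16, SE 0.13, adjusted p = 0.53) and S100A16 (-0.27, SE 0.09, adjusted p = 0.0688) were not called either, although S100A16 was lower by 0.55 and 0.73 in the libraries of 4 dpi, and it passed without library 6 (-0.37, adjusted p = 0.0249) but was -0.17 without library 11 and -0.11 with MKI67 classes. With cells thinned to 5000 UMIs and the classes made from the thinned counts, 3 genes were called lower (S100A6 by 0.51, S100A11 by 0.44 and ANXA2 by 0.40). The other 4 were no longer called there, with -0.26 for S100A10, -0.41 for S100P, -0.28 for ANXA3 and -0.44 for ANXA5. With cells divided by MKI67, 4 genes were called, and S100A11 (-0.22), S100P (-0.37) and ANXA3 (-0.11) were not.

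To see which members varied together from cell to cell, Pearson correlations of log-normalized UMIs were computed across the cells of each library and averaged over the 5 libraries. Of the 45 pairs 43 were positive, 37 of them in every library, with a median r of 0.24. The median of a member with all 5450 genes of at least 1 UMI per cell was -0.0106. Thinning cells to 5000 UMIs lowered the median of the pairs to 0.14, with 41 pairs positive. Cells of a library share their amplification and differ in depth, so these values are descriptions.

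**Figure D3:**
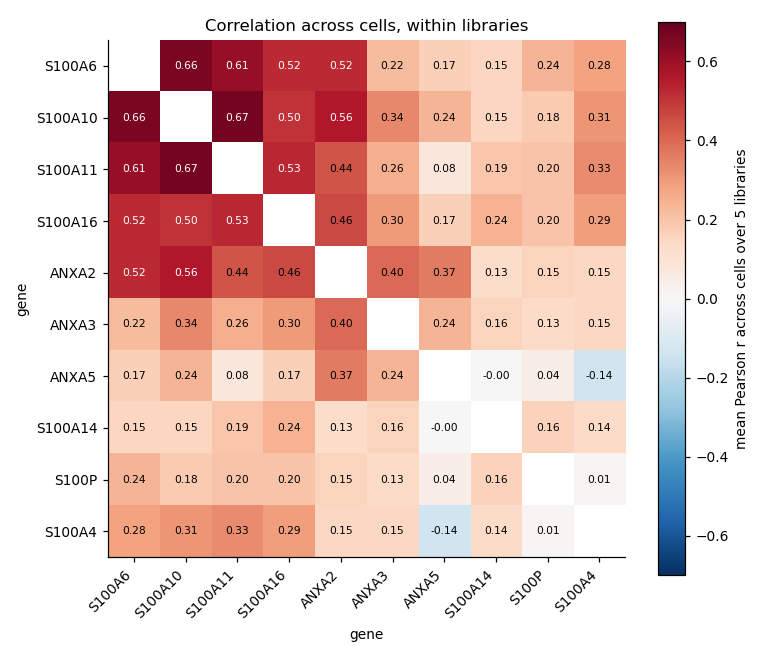
Pearson correlation across cells for each pair of the 10 genes, averaged over the 5 libraries (colour and printed value; genes on both axes, ordered by hand). S100A6, S100A10, S100A11, S100A16 and ANXA2 form a block with values of 0.44 to 0.67, and S100A4 with ANXA5 has the lowest value (-0.14).

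S100A10 and S100A11 had the highest correlation (r = 0.67, from 0.57 to 0.73 over the libraries, and 0.43 after thinning), followed by S100A6 with S100A10 (0.66, thinned 0.45) and with S100A11 (0.61, thinned 0.45). S100A10 with ANXA2, the genes of the tetramer, had an r of 0.56 (0.51 to 0.62, thinned 0.38), and S100A10 ranked first among all genes for ANXA2 both before and after thinning. S100A16 joined this block through S100A11 (0.53) and S100A6 (0.52). The gene most like S100A16 was SH3BGRL3 (0.53), which fell to rank 11 after thinning (0.23), where S100A6 ranked first (0.37).

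Outside the block, the genes most like S100A4 were KRT8, a keratin (0.41), GAPDH, a glycolytic enzyme (0.39), and RPS4X, a ribosomal protein (0.38), although its correlation with S100A11 was 0.33. With ANXA5 it was negative in all libraries (-0.28 to -0.02). S100P was most like SLPI, a secreted protease inhibitor (0.31), TPT1 (0.28) and FTH1, a ferritin subunit (0.25). S100A14 was most like ARPC1B (0.26), ITGB4 (0.24) and S100A16 (0.24), but ARPC1B dropped to rank 570 after thinning, so these weak values are no finding. ANXA3 was most like ANXA2 (0.40), KRT19 (0.36) and S100A10 (0.34). ANXA5 was most like UPP1 (0.42), ANXA2 (0.37) and PDLIM2 (0.35).

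Of 14 other S100 genes, 6 had 0 UMIs in all cells (S100A7, S100A7A, S100A8, S100A12, S100B and S100G), 3 had at most 5 UMIs and 5 were tested. The list includes S100PBP, which encodes a binding protein of S100P. In all cells 2 of the 5 were lower at 4 dpi and 0 higher, with a median of -0.93. S100A2 went from a mean of 12.8 ± 2.59 CPM (SD, n = 3) to 6.33 ± 0.38 (n = 2; log2 change -1.03, SE 0.27, adjusted p = 0.0102 by edgeR), and S100A3 from 18.1 ± 8.76 to 6.34 ± 1.48 (log2 change -1.52, SE 0.37, adjusted p = 0.006). S100A13 was like S100A6 in direction: it was called higher in TOP2A-zero cells (0.48, SE 0.16, adjusted p = 0.0452) and not in TOP2A-positive cells (0.02, SE 0.16, adjusted p = 0.94), while the difference of these changes was not called (-0.46, SE 0.20, adjusted p = 0.596). Of 10 other annexins, 6 were tested and 1 was called, ANXA11, which was lower (-0.35, SE 0.12, adjusted p = 0.0344). ANXA6 had the largest change (0.54, SE 0.27, adjusted p = 0.147). ANXA1, the partner of S100A11, had a change of 0.08 (SE 0.12, adjusted p = 0.646).

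**Figure D4:**
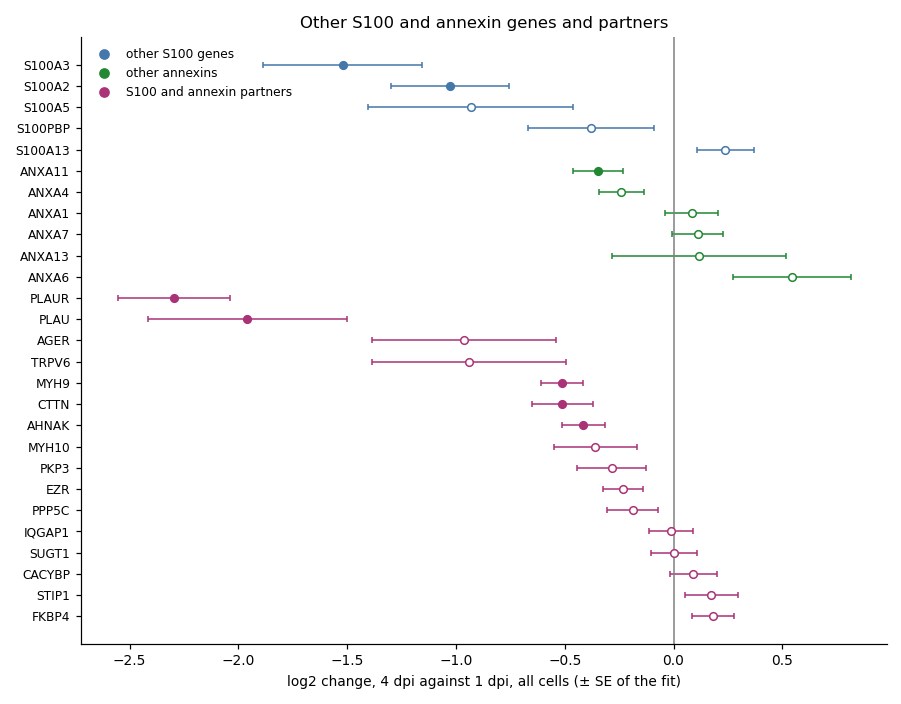
Log2 change from 1 dpi to 4 dpi in all cells (horizontal axis, ± SE of the edgeR fit) of the other tested S100 genes (blue), other tested annexins (green) and partners of S100 proteins and annexins (purple), filled where the adjusted p is under 0.05. PLAUR (-2.30) and PLAU (-1.96) have the lowest values and ANXA6 (0.54, not called) the highest.

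Among the 16 tested partners reported here, 5 were lower at 4 dpi, with a median of -0.32. The lower ones included the urokinase PLAU (-1.96, SE 0.46, adjusted p = 0.0051) and its receptor PLAUR (-2.30, SE 0.26, adjusted p = 1.6e-05), which act in the plasminogen pathway that the S100A10 and ANXA2 tetramer serves. PLAUR stood at a mean of 183 ± 71.2 CPM (SD, n = 3) at 1 dpi and 37.7 ± 3.74 (n = 2) at 4 dpi. The level of PLAU was low, with 11.2 ± 5.37 CPM at 1 dpi and 2.81 ± 1.74 at 4 dpi. AHNAK, a scaffold bound by the tetramer (-0.41, SE 0.10, adjusted p = 0.0057), MYH9, the myosin chain bound by S100A4 (-0.51, SE 0.10, adjusted p = 0.0013), and CTTN (-0.51, SE 0.14, adjusted p = 0.0125) were the others. Between the classes 5 of the 16 were lower in TOP2A-positive cells, among them AHNAK (-0.68) and EZR (-0.54), and CACYBP, the binding partner of S100A6, was higher (0.51, SE 0.09, adjusted p = 0.00023).

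Other calcium genes were called in both directions, in shares to be read against the 13.4% of all genes called higher and 14.2% called lower. Of 16 tested genes of calpains and membrane repair 4 were higher and 3 lower at 4 dpi (median -0.05), with CAPN2, a calpain, at -1.01 (SE 0.11, adjusted p = 1.1e-05), CAPN8 at -1.33 and SYT7 at 0.97. Of 20 calmodulin and calcium handling genes 5 were higher and 3 lower (median 0.17), from ATP2B4, a plasma membrane calcium pump (-1.30), to CALML4 (0.81). Of 16 tested genes near the S100 cluster on chromosome 1, 1 was higher (SLC39A1, 0.46, SE 0.12, adjusted p = 0.0096) and 0 were lower by edgeR, with a median of 0.12, and their extremes were UBE2Q1 (-0.23) and CREB3L4 (0.61). Among the epithelial markers CDH1 (-0.73), KRT18 (-0.42) and KRT19 (-0.38) were lower and EPCAM (0.25) was higher at 4 dpi. The summed leukocyte markers were 14.9 to 17.4 CPM at 1 dpi and 12.4 and 16.2 at 4 dpi, those of fibroblasts 23.3 to 27.4 and 33 and 44.7, and those of erythroid cells 5.06 to 9.83 and 3.17 and 4.04. Within these lists COL1A1 was called higher (2.14, SE 0.41, adjusted p = 0.0014) and HBA1 lower (-1.16, SE 0.40, adjusted p = 0.0402) at 4 dpi. Their part in the results was not tested.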

How the data were processed

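Single-cell RNA was measured by SORT-seq in 5 plates of 384 wells. The authors aligned the reads with BWA to the human reference transcriptome (hg38 per the labels; versions not given in the sources used here) and deposited, for each well, the raw UMI counts of all genes, neither normalized nor filtered. From these counts, genes seen in at least 10 wells and cells with more than 2000 genes (spike-in controls counted) and under 25% mitochondrial UMIs were kept, the limits the study's methods state. A first limit of 200 genes per well and the use of genes listed in all 5 libraries were added here. ERCC spike-in controls took 0.84% to 1.98% of the UMIs of these cells and were left out of totals. No doublet caller was run, since each well was sorted to hold 1 cell. All plates use the same 384 well barcodes, and 0 wells had identical counts.

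UMIs were summed per library, or per library and TOP2A class, with the library as the replicate (3 at 1 dpi, 2 at 4 dpi), and tested with edgeR 4.0.16 in R 4.3.3 (TMM, filterByExpr, glmQLFit and glmQLFTest, two-sided, Benjamini-Hochberg adjustment over all genes tested, threshold 0.05). Each sum held at least 10 cells. DESeq2 1.42.0 was an alternative. Levels (CPM) are UMIs scaled to 1000000 human UMIs, without TMM factors. Correlations used log(1 + UMIs per 10000). The fits were tested on simulated data. The members, the gene lists and the tests were chosen with earlier results of these data known. Genes named are the 10 members, other S100 and annexin genes called in all cells or the 2 of each family with the largest change, the 3 genes most like each member across cells, and the extremes of each list. S100A13, ANXA1 and further called partners and markers were named after their values were seen. Promoter sequences and coordinates are from RefSeq (GRCh38.p14). ANXA2 has processed pseudogenes with near-identical sequence, whose UMIs may be shared with it. Proteins were not analysed here. 1 gene of the partner list is not reported here, and the counts, median and plot of that list leave it out.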

Additional observations from a re-analysis of the deposited data

Results flagged for a closer look

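The time change of S100A3, a neighbour of S100A4, differed between the classes by -2.66 on the log2 scale (SE 0.53, adjusted p = 0.0152, edgeR interaction). Its mean in TOP2A-positive cells was 27.1 ± 15.5 CPM (SD, n = 3) at 1 dpi and 3.16 ± 0.95 (n = 2) at 4 dpi. In TOP2A-zero cells it was 11.3 ± 2.88 and 9.95 ± 4.26. These levels rest on few molecules, with 308 UMIs of S100A3 in all cells of 1 dpi and 49 in those of 4 dpi. UBE2C, a ubiquitin-conjugating enzyme of mitosis and a gene of the cycling list, differed by 1.80 (SE 0.30, adjusted p = 0.0021). Its change was 0.95 in TOP2A-positive and -0.83 in TOP2A-zero cells. The classes rest on detection of TOP2A, itself a cycling gene, with a mean of 111 CPM at 1 dpi and 275 at 4 dpi in TOP2A-positive cells. The part of this class definition in the difference of UBE2C was not tested.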

How the results depend on the processing

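With cells thinned to 5000 UMIs, 1197 genes were called between time points in all cells, 829 in TOP2A-zero and 89 in TOP2A-positive cells (4 members, of 9 tested), 287 between the classes (3 members) and 0 in the interaction, where fewer genes were tested. The classes of thinned cells were made from the thinned counts. Scaling to ERCC controls left 2 genes and 0 members. DESeq2 called 1000 genes in TOP2A-zero and 1170 in TOP2A-positive cells, 628 between the classes and 7 in the interaction. With cells under 15% mitochondrial UMIs, 1075 genes were called in TOP2A-positive cells and 669 between the classes. In the interaction, library totals gave 1 member, no filter on low counts 43 genes, a class limit of 2 UMIs 7 genes and MKI67 in place of TOP2A 79 genes, and MKI67 left 4 members between the classes. Against these stand 3485, 1909, 2075, 1113 and 21 genes in the reported fits. Leaving out each library in turn gave 2352 to 2940 genes and 6 to 8 members in all cells, 750 to 1567 genes and 3 to 7 members in TOP2A-zero cells (956 genes without library 10, 750 without 11), 921 to 1980 genes and 4 to 7 members in TOP2A-positive cells (1371 without library 7, 1074 without 10, 921 without 11), 729 to 1100 genes and 7 to 8 members between the classes (729 without library 6), and 10 to 36 genes and 0 members in the interaction (36 without library 7, 10 without 11). The cause was not tested.

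Signs turned only for members whose reported value was not called. In all cells ANXA5 was -0.18 after thinning and -0.18 with ERCC scaling, where S100A6 was -0.012, and without single libraries ANXA5 ran from -0.020 to 0.071. In TOP2A-zero cells ANXA2 was 0.0019 under 15% mitochondrial UMIs and ANXA5 -0.12 after thinning, and without single libraries ANXA5 ran from -0.012 to 0.052 and S100A14 from -0.72 to 0.29. In TOP2A-positive cells S100A6 was 0.13 and ANXA5 -0.10 after thinning, S100A6 was 0.077 with MKI67, and without single libraries it ran from -0.087 to 0.040. Between the classes S100A4 was -0.0080 under 15% mitochondrial UMIs, -0.044 after thinning and -0.0031 with no library block, S100A14 was 0.072 after thinning, and without single libraries S100A4 ran from -0.034 to 0.086 and S100A14 from -0.26 to 0.029. In the interaction S100A10 was -0.11 with library totals, -0.0069 with more than 3000 genes, -0.068 under 15% mitochondrial UMIs, -0.46 after thinning and -0.022 with 2 TOP2A UMIs. ANXA3 was 0.023 under 15% mitochondrial UMIs, S100A4 -0.019 after thinning, and with MKI67 S100A14 was 0.80 and ANXA5 -0.11. Without single libraries S100A10 ran from -0.089 to 0.13, ANXA2 from -0.13 to 0.035 and ANXA3 from -0.31 to 0.17.

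No paired analysis was possible because the libraries of the time points share no replicate number. Flow cells held libraries of both time points, and the flow cell as a term was the nearest substitute. Classes were compared within libraries. The number of libraries (3 and 2) limits the precision.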
